A study of Homo sapiens with 27 samples.

Results

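Transcript levels were followed for 41 genes that encode subunits of BAF (SWI/SNF) and the other families of ATP-dependent chromatin remodellers. The genes were chosen by name from the 67130 genes listed in both count tables: 25 subunits of the BAF complexes other than the ARID proteins, and 16 ATPases of the ISWI, CHD, INO80 and SWR1 type and other SNF2 families. All 41 passed the filter on low counts in each fit. RNA was sequenced from 27 libraries of human cell lines in 9 groups of 3, and every group carried a knockout of the endogenous ARID1A gene, which encodes the largest subunit of the canonical BAF complex. In the libraries labelled 293T, an embryonic kidney line with the SV40 large T antigen, the knockout cells had received Flag-tagged ARID1A as the K2025E, G2087R, G2087E or V2084D mutant or as wild type (WT), delivered by lentivirus for stable expression, and 1 group was the knockout alone (KO). In the libraries labelled Huh7, a hepatocellular carcinoma line, the knockout cells had received V2084D with a knockdown of STUB1 (shSTUB1), V2084D alone, or WT; this set has no library of knockout cells alone. The labels do not say whether a line was a clone or a pool, nor whether replicates came from separate cultures, so a clone cannot be told apart from its genotype and a p-value covers the spread among libraries, which may be technical.

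BAF complexes use the ATPase SMARCA4 (BRG1) or its alternative SMARCA2 (BRM) to slide or evict nucleosomes. In canonical BAF the ATPase joins a core of SMARCB1, SMARCC, SMARCD and SMARCE1 subunits and a module of actin-like and BCL7 and SS18 proteins. The other subtypes share these subunits only in part. ARID1A or ARID1B with a DPF protein then defines canonical BAF, PBRM1, BRD7, PHF10 and ARID2 define PBAF, and BRD9 with BICRA or BICRAL defines the non-canonical complex. ISWI enzymes space nucleosomes, CHD3, CHD4 and CHD5 drive the deacetylase complex NuRD, and the INO80 and SWR1 type enzymes exchange or evict histone variants.

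Levels are TMM-scaled CPM, read counts brought to a common library size, on a scale shared by all 27 libraries, and changes are log2 differences with the standard error (SE) and Benjamini-Hochberg adjusted p of edgeR's quasi-likelihood test over all genes of a comparison; a gene was called where adjusted p was below 0.05. The Huh7 set held 59124374 to 79915177 counts a library and the 293T set 33429483 to 55539529, of which the 41 genes took 0.324 to 0.488% in the Huh7 set and 0.363 to 0.516% in the 293T set. In each of the 27 pairs of replicates the variance over all genes, ARID1A included, was 11.1 to 310 times that of counting alone. The highest values, 283 and 310, came from G2087R replicate 3 against replicates 1 and 2, which differ widely in ARID1A. The part of ARID1A in these values was not separated. ARID1A itself stood at 17880, 13600 and 21670 CPM in K2025E, 294, 326 and 68480 CPM in G2087R, 5727, 9391 and 63180 CPM in WT and 135, 194.5 and 119 CPM in KO of the 293T set, so G2087R replicates 1 and 2 lay near KO and the WT libraries were uneven. In the Huh7 set ARID1A was at 287, 187.5 and 344 CPM with shSTUB1, 263.5, 270 and 211 CPM in V2084D and 329, 354 and 389.9 CPM in WT. These values lay around those of G2087R replicates 1 and 2 and far below every WT and K2025E library of the 293T set. Without a KO library labelled Huh7, they do not show whether the introduced WT or V2084D was expressed. STUB1 was at 69.4, 83.3 and 65.9 CPM with shSTUB1, 247, 247 and 290.2 CPM in V2084D and 221, 207 and 237 CPM in WT. The Huh7 label went against its markers: 12 liver genes summed to 1.97 to 5.19 CPM in the 9 libraries labelled Huh7 and to 2.88 to 10.6 CPM in those labelled 293T, with APOH at 0 in every library labelled Huh7 and AFP at no more than 0.064 CPM. A list of 12 genes typical of 293 cells summed to 348 to 392 CPM with shSTUB1, 445 to 503 CPM in V2084D and 783 to 817 CPM in WT of the Huh7 set, and to 407 to 798 CPM in the 293T set. These libraries are therefore called by their label only. IRS4, which makes up much of the sum of the 293 list, was at 22.6, 14.4 and 23.5 CPM with shSTUB1, 19.3, 21.6 and 15.2 CPM in V2084D and 431, 463 and 431 CPM in WT, and its part in the changes described here was not tested.

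Per kilobase of exon, the most abundant of the genes in WT labelled Huh7 was CHD4, the NuRD ATPase, at 46.2 ± 0.7175 CPM per kb (SD, n = 3). The ISWI ATPase SMARCA5 followed at 44.8 ± 2.68 CPM per kb, a gap smaller than its own SD. SMARCD2 stood at 41.7 ± 0.677, the scaffold subunit SMARCC1 at 37.1 ± 0.400, SMARCD1 at 30.95 ± 0.454 and SMARCA4 at 30.0 ± 1.575 CPM per kb, the last pair within their spread of each other. In WT labelled 293T the order began with SMARCD1 at 39.2 ± 5.645, CHD4 at 37.7 ± 3.38, SMARCD2 at 35.1 ± 3.245 and SMARCC1 at 32.6 ± 4.48 CPM per kb, whose spreads all overlap that of a neighbour. Over the groups of the Huh7 set, 19 of the genes averaged at least 10 CPM per kb, 19 lay between 1 and 10, and 3 were below 1; in the 293T set the counts were 20, 18 and 3. The 3 low genes were the same in both: ACTL6B and CHD5, best known from neurons, and DPF3, known from neurons, heart and muscle. DPF1 and SS18L1, the other BAF subunits listed beforehand for neurons, were not low. DPF1 was at 21.1 to 35.8 CPM in the Huh7 set and 12 to 43.7 CPM in the 293T set. SS18L1 was at 22.6 to 30.8 CPM in the Huh7 set and 17.4 to 35.0 CPM in the 293T set.

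In V2084D against WT of the libraries labelled Huh7, genes of every BAF subtype and of the ISWI, CHD and INO80 families were called. For canonical BAF this rests on DPF1 alone, whose groups overlapped. The calls of DPF1, INO80 and EP400 ended when single libraries were left out. Of the 41 genes, 18 fell and 2 rose, or 43.9% and 4.88% of them, while 20.0% of all genes tested fell and 22.0% rose. The median log2 difference was -0.252 over the 41 genes and 0.0283 over all genes, and 33 of the 41 had a negative value. Among the genes that fell were the ATPases of BAF (SMARCA4), NuRD (CHD3 and CHD4), ISWI (SMARCA1 and SMARCA5) and the INO80 and TIP60 complexes (INO80 and EP400). The 2 that rose were SMARCA2, the alternative BAF ATPase, and PHF10, a PBAF subunit. The ARID1A transcript was itself called lower in V2084D, at -0.55 (SE 0.183, adjusted p = 0.0325), so the mutation and the ARID1A level cannot be told apart. In these bulk samples fewer cells of a type and less RNA per cell cannot be told apart.

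**Figure D1:**
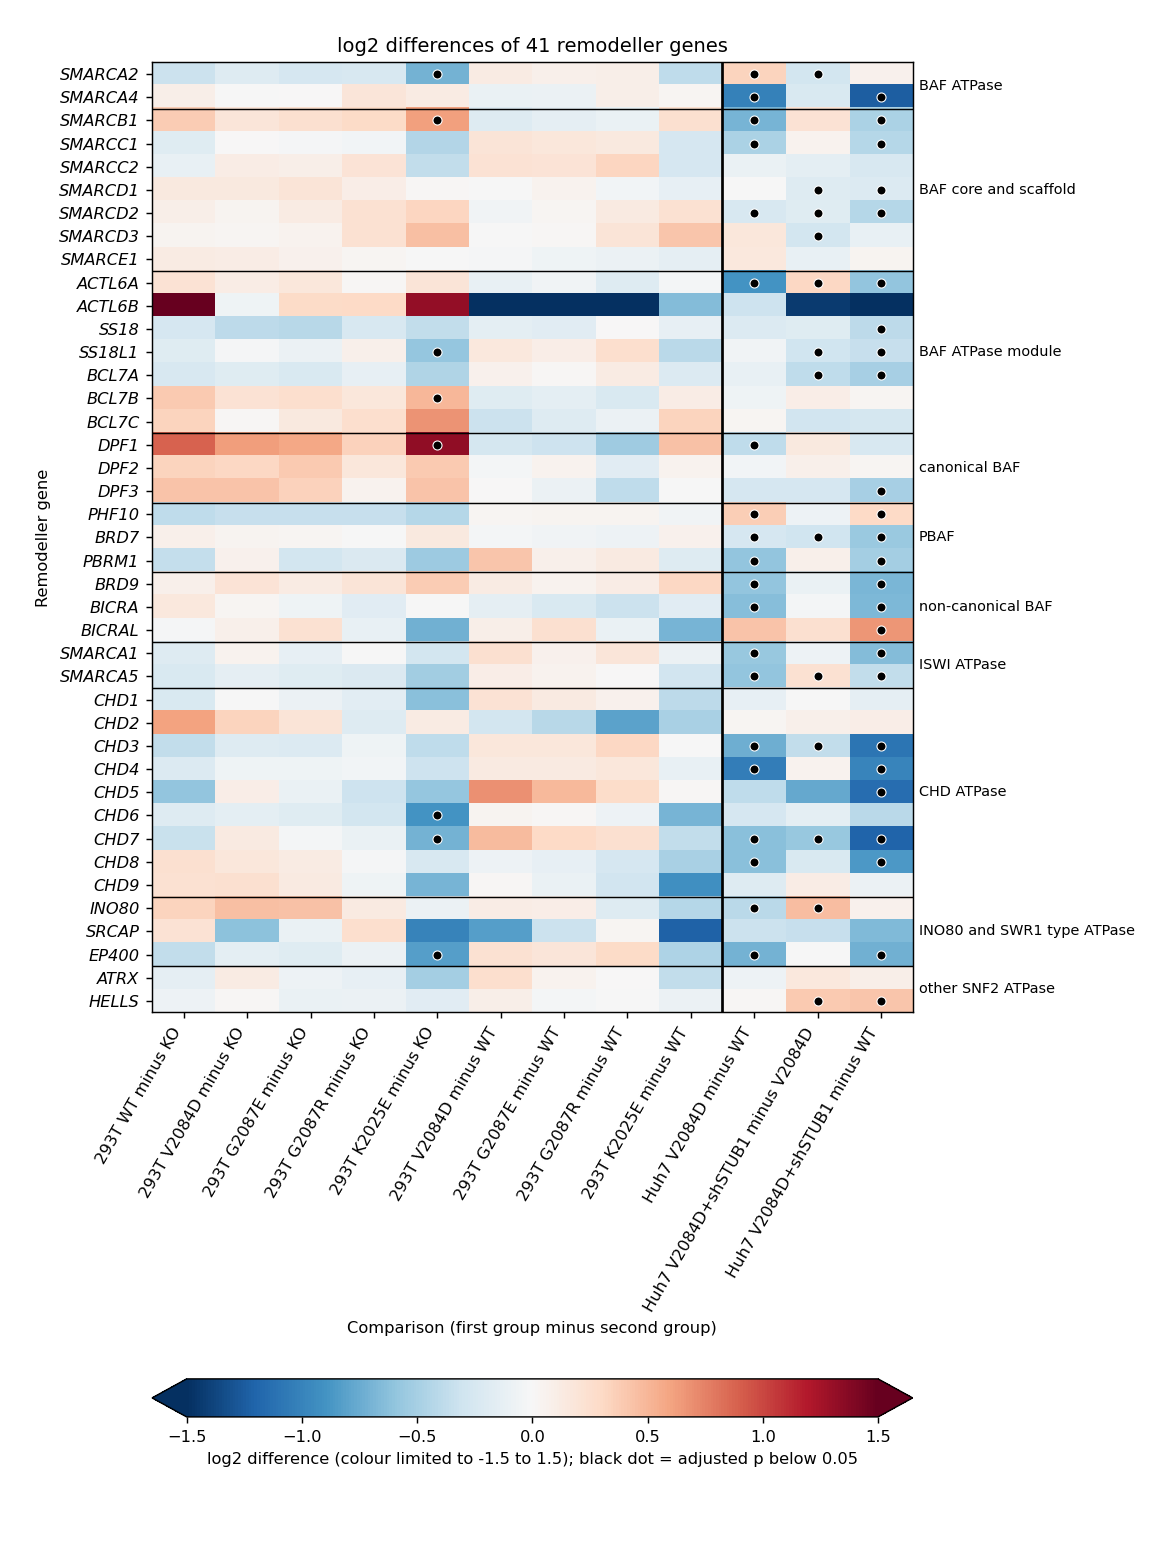
Heat map of log2 differences of the 41 genes (rows, ordered by complex) in 9 comparisons of the 293T set and 3 of the Huh7 set (columns, first group minus second group), with black dots where adjusted p was below 0.05. Calls stand in 4 columns: K2025E minus KO with 8, V2084D minus WT of the Huh7 set with 20, and the columns with shSTUB1 with 13 and 25; the colour scale ends at -1.5 and 1.5, and the deep colours of ACTL6B rest on a gene below 1 CPM per kb.

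The BAF ATPases moved in opposite directions. SMARCA4 (ENSG00000127616, GRCh38 chromosome 19, 10960825 to 11079426) was at 234, 238 and 245.5 CPM in the V2084D libraries, against 461, 456 and 501 CPM in WT. Every V2084D library lay below every WT library, and the log2 difference was -1.01 (SE 0.088, adjusted p = 9.9e-06). SMARCA2 (ENSG00000080503, GRCh38 chromosome 9, 1980290 to 2193624) was at 56.1, 56.1 and 51.45 CPM in V2084D and 40.6, 43.4 and 43.3 CPM in WT, again without overlap, a difference of 0.34 (SE 0.0776, adjusted p = 0.00495). As a share of the summed level of both per kilobase, SMARCA2 made up 15.1 to 16.9% in V2084D and 6.83 to 7.47% in WT.

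Of the 7 core and scaffold genes, 3 fell and none rose. SMARCB1 (ENSG00000099956, GRCh38 chromosome 22, 23786931 to 23838008), the core subunit that grips the nucleosome, was at 153, 157 and 189 CPM in V2084D and 264.5, 258 and 273 CPM in WT. The third V2084D library was the highest of its group and still below all WT libraries, and the difference was -0.70 (SE 0.0835, adjusted p = 7.71e-05). SMARCC1, a scaffold on which the core is built, was at 209.6, 218 and 196 CPM in V2084D and 287, 283 and 280.5 CPM in WT. SMARCD2, another core subunit, was at 131, 135 and 135 CPM in V2084D and 157, 153 and 157 CPM in WT. Both fell, with differences of -0.47 and -0.25 (adjusted p = 0.00183 and 0.00437). SMARCC2, SMARCD1, SMARCD3 and SMARCE1 were not called, with differences between -0.10 and 0.17.

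In the ATPase module 1 of 7 genes was called. ACTL6A (ENSG00000136518, GRCh38 chromosome 3, 179562880 to 179588408), an actin-like protein that BAF shares with INO80 and TIP60, was at 31.3, 30.3 and 32.8 CPM in V2084D and 57.75, 58.8 and 56.7 CPM in WT. Its groups were narrow and far apart, and it had the smallest adjusted p of the 41 genes, at a difference of -0.90 (SE 0.0627, adjusted p = 2.36e-06). SS18, SS18L1 and the BCL7 genes lay between -0.21 and 0.03, ACTL6B had -0.31 at a level near 0, and none was called.

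The subunits that set the BAF subtypes were divided. BRD9 (ENSG00000028310, GRCh38 chromosome 5, 850291 to 892824), the bromodomain protein of the non-canonical complex, was at 44.4, 40.95 and 43.0 CPM in V2084D and 59.1, 62.2 and 68.3 CPM in WT. Its partner BICRA (ENSG00000063169, GRCh38 chromosome 19, 47608196 to 47703277) was at 15.45, 15.6 and 15.5 CPM in V2084D and 22.9, 23.8 and 24.6 CPM in WT. Neither gene's groups overlapped, and the differences were -0.59 (SE 0.0675, adjusted p = 5.79e-05) for BRD9 and -0.64 (SE 0.078, adjusted p = 8.51e-05) for BICRA, while BICRAL, the alternative to BICRA, had 0.42 and was not called (adjusted p = 0.0665). In PBAF, BRD7 and the polybromo subunit PBRM1 fell, with differences of -0.26 and -0.59 (adjusted p = 0.0113 and 0.0298). PHF10 rose, at 103, 106 and 96.6 CPM in V2084D and 78.7, 81.3 and 72.3 CPM in WT, a difference of 0.37 (SE 0.0695, adjusted p = 0.00144). In canonical BAF, DPF1 fell, with a difference of -0.38 (adjusted p = 0.041) and overlapping groups, and DPF2 and DPF3 were not called.

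**Figure D2:**
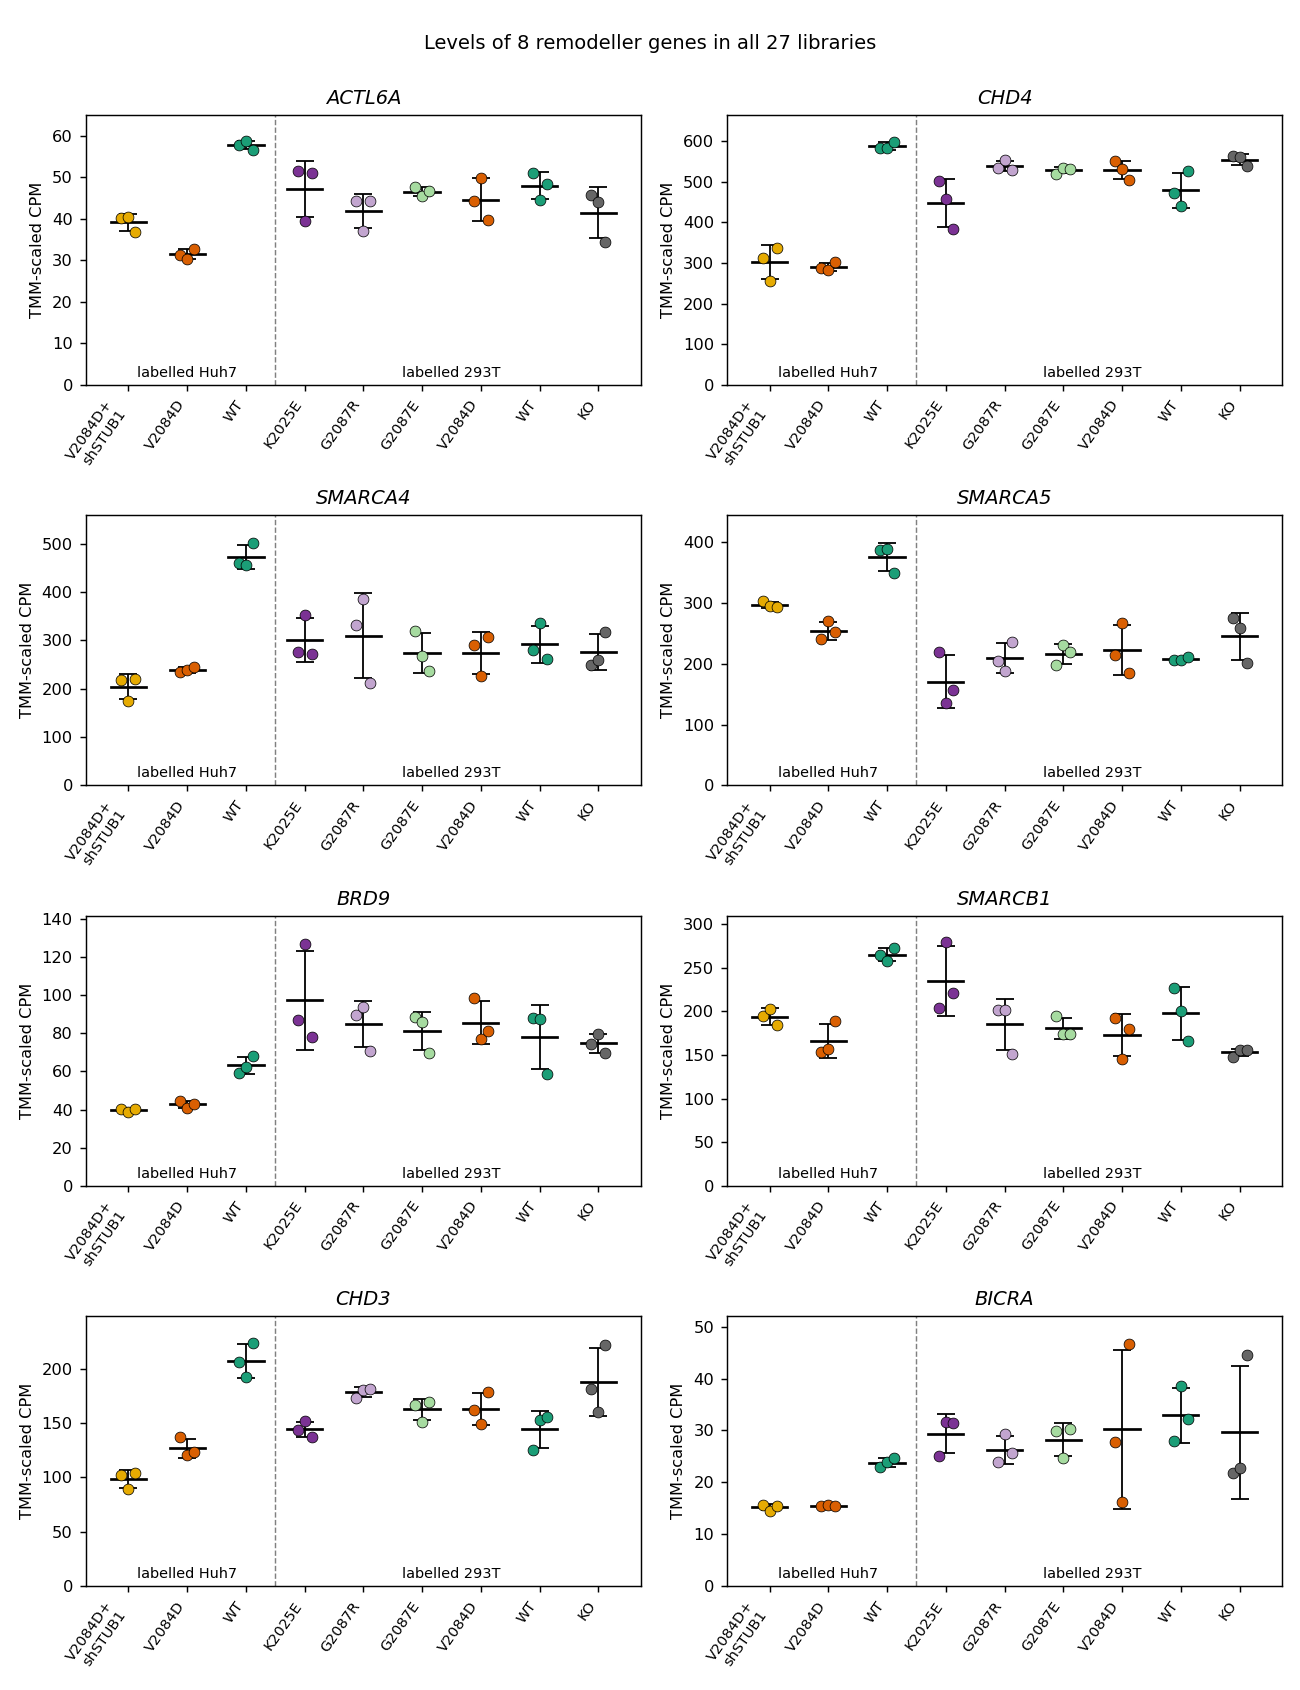
CPM of the 8 genes with the smallest adjusted p in V2084D minus WT of the Huh7 set, in all 27 libraries (points), with group mean and SD (bars). In each panel the V2084D points of the Huh7 set lie below the WT points of that set, as for CHD4 with means of 290.1 and 587 CPM, while the V2084D and WT points labelled 293T overlap in each panel.

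Outside BAF, both ISWI ATPases fell. SMARCA5 (ENSG00000153147, GRCh38 chromosome 4, 143513463 to 143557486) was at 242, 270.2 and 252 CPM in V2084D and 388, 390 and 350 CPM in WT, with every V2084D library below WT and a difference of -0.59 (SE 0.0623, adjusted p = 3.3e-05). SMARCA1, the other ISWI enzyme, was at 51.6, 50.8 and 49.8 CPM in V2084D and 80.8, 73.9 and 67.7 CPM in WT, again without overlap, a difference of -0.57 (SE 0.0767, adjusted p = 0.000163). Among the 9 CHD genes 4 fell and none rose. CHD4 (ENSG00000111642, GRCh38 chromosome 12, 6570082 to 6614524) was at 287, 282 and 301 CPM in V2084D and 581, 582 and 598 CPM in WT, a difference of -1.04 (SE 0.09, adjusted p = 9.18e-06). CHD3 (ENSG00000170004, GRCh38 chromosome 17, 7884806 to 7912760), its alternative in NuRD, was at 137, 121 and 124 CPM in V2084D and 206, 192 and 223 CPM in WT, a difference of -0.73 (SE 0.0876, adjusted p = 7.75e-05). For both genes the highest V2084D library lay well below the lowest WT library. CHD7 and CHD8, related ATPases known from developmental disorders, also fell. CHD7 was at 70.4, 74.0 and 62.4 CPM in V2084D and 109, 102 and 102 CPM in WT, a difference of -0.63 (SE 0.133, adjusted p = 0.00303). CHD8 was at 124.5, 132.5 and 107 CPM in V2084D and 184, 179.5 and 189.6 CPM in WT, a difference of -0.63 (SE 0.14, adjusted p = 0.00417). CHD1, CHD2, CHD5, CHD6 and CHD9 were not called. INO80 was at 50.2, 49.7 and 42.8 CPM in V2084D and 60.8, 61.1 and 63.65 CPM in WT, and EP400, of the TIP60 complex, at 82.0, 85.2 and 70.4 CPM in V2084D and 126, 125 and 130.3 CPM in WT. Both fell, with differences of -0.41 and -0.71 (adjusted p = 0.0156 and 0.0214), and ATRX and HELLS were not called.

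Of these 20 calls, 14 held under every alternative run and 16 with each library left out in turn. With offsets for GC content and transcript length PHF10, 1 of the 2 genes that rose, had 0.13 in place of 0.37, and with a replicate block as well its call and that of SMARCD2 ended (adjusted p = 0.0948 and 0.073). The calls of DPF1, PBRM1, EP400 and INO80 ended without single libraries: DPF1 without any WT library or V2084D replicate 1 or 2, PBRM1 without WT replicate 1 or 2 or V2084D replicate 2 or 3, EP400 without any WT library or V2084D replicate 1 or 3, and INO80 without WT replicate 3 or V2084D replicate 3, at adjusted p up to 0.155.

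The 3 genes with the largest fall that the RefSeq promoter table lists and the 2 that rose are shown with 250 bases before their RefSeq start (GRCh38.p14, written 5′ to 3′ on the gene's strand), because they are the ends of the change in V2084D. The windows are chr12:6606452-6606701 on the minus strand for CHD4, chr19:10960780-10961029 on the plus strand for SMARCA4, chr17:7888539-7888788 on the plus strand for CHD3, chr6:169724501-169724750 on the minus strand for PHF10 and chr9:2015097-2015346 on the plus strand for SMARCA2. GENCODE 29 places the first start of each of these genes further upstream, so each window lies wholly or partly inside the annotated gene. Capitals mark matches, on either strand, to 7 motifs: CCAAT of the factor NF-Y, GGGCGG of SP and KLF factors, CCGGAAG of ETS factors, TGACGT of CREB and ATF factors, GCGCATGCG of the factor NRF1, TTTCCCGC of E2F factors and AAGATGGC of the factor YY1.
CHD4: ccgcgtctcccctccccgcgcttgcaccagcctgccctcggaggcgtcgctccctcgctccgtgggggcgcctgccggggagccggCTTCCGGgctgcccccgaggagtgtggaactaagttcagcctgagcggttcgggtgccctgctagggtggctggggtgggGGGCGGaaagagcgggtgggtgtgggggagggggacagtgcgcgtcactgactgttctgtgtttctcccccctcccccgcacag
SMARCA4: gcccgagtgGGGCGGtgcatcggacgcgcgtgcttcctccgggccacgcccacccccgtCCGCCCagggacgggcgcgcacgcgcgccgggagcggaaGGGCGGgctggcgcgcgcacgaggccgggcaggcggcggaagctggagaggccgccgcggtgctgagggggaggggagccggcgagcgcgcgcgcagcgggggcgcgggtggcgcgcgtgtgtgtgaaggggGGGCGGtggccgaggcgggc
CHD3: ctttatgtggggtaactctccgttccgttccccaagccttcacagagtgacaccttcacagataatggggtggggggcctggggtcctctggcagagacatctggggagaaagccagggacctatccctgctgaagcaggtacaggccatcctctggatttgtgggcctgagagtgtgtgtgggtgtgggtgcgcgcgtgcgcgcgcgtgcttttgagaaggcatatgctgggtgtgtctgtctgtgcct
PHF10: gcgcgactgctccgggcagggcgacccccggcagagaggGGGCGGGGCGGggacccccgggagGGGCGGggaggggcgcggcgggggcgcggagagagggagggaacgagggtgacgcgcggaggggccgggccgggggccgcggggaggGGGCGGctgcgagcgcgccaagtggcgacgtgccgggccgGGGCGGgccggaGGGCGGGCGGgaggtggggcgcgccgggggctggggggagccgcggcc
SMARCA2: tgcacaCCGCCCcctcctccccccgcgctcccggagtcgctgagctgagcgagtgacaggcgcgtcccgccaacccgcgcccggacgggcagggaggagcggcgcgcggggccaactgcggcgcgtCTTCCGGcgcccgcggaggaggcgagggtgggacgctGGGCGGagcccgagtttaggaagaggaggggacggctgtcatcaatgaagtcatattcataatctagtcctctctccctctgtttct
The GC box GGGCGG was found 1 time in CHD4, 4 times in SMARCA4, 7 times in PHF10 and 2 times in SMARCA2, and not in the CHD3 window. It stood in 24 of the 34 remodeller genes in the table (70.6%) and in 42.6% of all 35116 windows. The ETS motif CCGGAAG had 1 match each in CHD4 and SMARCA2 and stood in 8.52% of all windows, and none of the other motifs matched in these 5. These are matches of letters and say nothing of a factor's binding.

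Adding the STUB1 knockdown to V2084D compares libraries with shSTUB1 and libraries whose labels give no shRNA. No library is labelled with a control shRNA. Lowering of STUB1, a chaperone-linked ubiquitin ligase, therefore cannot be told apart from the delivery of an shRNA. Of the 41 genes, 4 rose and 9 fell, against 10.8% of all genes in each direction, so the rise (9.76% of the genes) lay near the background and the fall at 22.0% above it. The median was -0.102 over the 41 genes and -0.00349 over all genes. With offsets for GC content and transcript length 7 rose and 8 fell, at 13.5% and 10.3% of all genes. The 4 that rose were ACTL6A, SMARCA5, INO80 and HELLS.

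ACTL6A was at 40.2, 40.5 and 36.7 CPM with shSTUB1, against 31.3, 30.3 and 32.8 CPM in V2084D alone. All libraries with shSTUB1 were higher, by 0.31 (SE 0.0624, adjusted p = 0.00568), and remained below the WT libraries. INO80, the ATPase of the complex that ACTL6A also serves, was at 72.2, 53.0 and 72.2 CPM with shSTUB1 and 50.2, 49.7 and 42.8 CPM without, a difference of 0.47 (SE 0.115, adjusted p = 0.016). HELLS, a helicase linked to DNA methylation, was at 129.5, 148 and 119.8 CPM with shSTUB1 and 99.8, 95.8 and 107 CPM without, a difference of 0.39 (SE 0.0859, adjusted p = 0.00952). The groups of both genes did not overlap, although INO80 replicate 2 with shSTUB1 lay close to the V2084D libraries. SMARCA5 had 0.22 (SE 0.0621, adjusted p = 0.0271).

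Among the genes that fell with shSTUB1, BCL7A, a subunit of the ATPase module, was at 59.0, 58.2 and 60.6 CPM, against 80.3, 79.5 and 71.4 CPM in V2084D alone, a difference of -0.38 (SE 0.0682, adjusted p = 0.0033). BRD7 was at 89.15, 86.5 and 78.8 CPM with shSTUB1 and 104, 103 and 106.5 CPM without, a difference of -0.30 (SE 0.0686, adjusted p = 0.0109). SS18L1, also of the ATPase module, was at 22.6, 23.9 and 25 CPM with shSTUB1 and 30.6, 28.7 and 28.4 CPM without, a difference of -0.30 (SE 0.0705, adjusted p = 0.0136). All 3 had every library with shSTUB1 below every V2084D library. CHD7 was at 45.5, 37.2 and 56.5 CPM with shSTUB1 and 70.4, 74.0 and 62.4 CPM without, a difference of -0.57 (SE 0.133, adjusted p = 0.0122). CHD3 was at 102, 89.1 and 104 CPM with shSTUB1 and 137, 121 and 124 CPM without, a difference of -0.37 (SE 0.0873, adjusted p = 0.0132). Both were already lower in V2084D than in WT. SMARCD1, SMARCD2, SMARCD3 and SMARCA2 fell, with differences between -0.28 and -0.18 (adjusted p = 0.0183 to 0.0369). Of the 13 calls, ACTL6A, BCL7A, BRD7 and HELLS held with each library left out, and ACTL6A and BCL7A held under every alternative run. With GC and length offsets and a replicate block together the calls of BRD7 and HELLS ended (adjusted p = 0.0511 and 0.0662). Without single libraries 6 calls were made without V2084D replicate 1 and 6 without shSTUB1 replicate 1. The share of all genes called in those fits is not given here.

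Set against WT, V2084D with shSTUB1 had 22 of the 41 genes lower and 3 higher, or 53.7% and 7.32%, where 21.7% of all genes fell and 23.5% rose. The median was -0.399 over the 41 genes and 0.0193 over all genes. Replicate 2 with shSTUB1 stood apart from its group, at 96.9 on the second principal component of the Huh7 set where replicates 1 and 3 were at 14.1 and 11.3. Without it 20 genes were lower and 4 higher, with a median of -0.349. The share of all genes called without replicate 2 is not given here, so these counts were not set against the background. This comparison shares its libraries with the preceding ones, so values are set side by side. SMARCA4 was at 219, 174 and 219 CPM with shSTUB1, against 461, 456 and 501 CPM in WT, a difference of -1.24 (SE 0.0884, adjusted p = 2.29e-06) where V2084D alone had -1.01. CHD4 was at 312.5, 255 and 337 CPM with shSTUB1, against 581, 582 and 598 CPM in WT, a difference of -0.99 (SE 0.0899, adjusted p = 1.05e-05) where V2084D alone had -1.04. Both genes kept every library with shSTUB1 below WT. CHD3 differed from WT by -1.10 (SE 0.0882, adjusted p = 4.64e-06), where V2084D alone had -0.73. CHD7 differed by -1.20 (SE 0.134, adjusted p = 4.12e-05), where V2084D alone had -0.63. ACTL6A differed by -0.59 (SE 0.0624, adjusted p = 2.86e-05), where V2084D alone had -0.90. BRD9, BICRA and SMARCA1 differed by -0.69, -0.67 and -0.65 (adjusted p = 1.72e-05, 5.5e-05 and 6.28e-05).

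Between V2084D and WT 18 genes fell, and 16 of them also fell between shSTUB1 and WT. Between shSTUB1 and V2084D, 3 of the 18 rose (ACTL6A, SMARCA5 and INO80), 4 fell again (SMARCD2, BRD7, CHD3 and CHD7) and 11 were not called. A further 6 genes were called lower than WT with shSTUB1 and not called in V2084D alone: SMARCD1, DPF3, SS18, SS18L1, BCL7A and CHD5. The genes higher than WT with shSTUB1 were HELLS at 0.41, PHF10 at 0.30 and BICRAL at 0.67, and SMARCA2, higher in V2084D, was at 0.07 with shSTUB1 and not called. With GC and length offsets the calls of HELLS (0.15, adjusted p = 0.246), PHF10 (0.01, adjusted p = 0.9) and SMARCB1 (-0.19 in place of -0.48, adjusted p = 0.13) ended. In none of these 3 comparisons were 12 genes called, among them DPF2, SMARCE1, ATRX and SRCAP. Of the 25 calls 17 held under every alternative run and 20 with each library left out, and those of SMARCD1, DPF3, PBRM1, CHD5 and EP400 did not: SMARCD1 ended without WT replicate 1 or 2, EP400 without WT replicate 3, DPF3 without any WT library or shSTUB1 replicate 2 or 3, PBRM1 without any WT library or shSTUB1 replicate 1 or 2, and CHD5 without WT replicate 3 or shSTUB1 replicate 1 or 2, at adjusted p up to 0.172.

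Whether V2084D minus WT differed from the Huh7 set to the 293T set was tested as an interaction in 1 fit of all 27 libraries. Of the 41 genes, 6 (14.6%) had a lower value in the Huh7 set and none a higher one, where 4.21% of all genes were lower and 5.50% higher. The 6 were CHD4, CHD3, CHD7, ACTL6A, SMARCA4 and SMARCC1. For CHD4 the V2084D libraries labelled 293T had 550.1, 529.9 and 504 CPM and the WT libraries 472.5, 439.8 and 525 CPM, overlapping groups; V2084D minus WT was -1.04 in the Huh7 set and 0.14 in the 293T set, and the interaction was -1.16 (SE 0.154, adjusted p = 4.34e-05). For CHD3 the V2084D libraries labelled 293T had 162, 149 and 179 CPM and WT 125, 152.5 and 155.5 CPM, which also overlap, and the interaction was -0.88 (SE 0.171, adjusted p = 0.00164). In SMARCA4 they had 289.8, 225 and 308 CPM in V2084D and 279, 335 and 262 CPM in WT, groups that overlap, with an interaction of -0.89 (SE 0.249, adjusted p = 0.0233). CHD7 differed from these: it was at 148, 171 and 158 CPM in V2084D and 99.4, 139 and 106 CPM in WT labelled 293T, every V2084D library above WT, at 0.47 in the 293T set (not called, adjusted p = 1) and -0.63 in the Huh7 set. Its interaction was -1.07 (SE 0.224, adjusted p = 0.00314). That of ACTL6A was -0.77 (SE 0.181, adjusted p = 0.00793), and that of SMARCC1 -0.65 (SE 0.204, adjusted p = 0.0449). The calls of CHD4, CHD3, CHD7 and ACTL6A held with each library left out. SMARCA4 was no longer called without V2084D replicate 3 labelled 293T or without WT replicate 3 or V2084D replicate 1 or 2 labelled Huh7, at adjusted p up to 0.0606, and SMARCC1 lost its call without most single libraries (adjusted p up to 0.118).

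**Figure D3:**
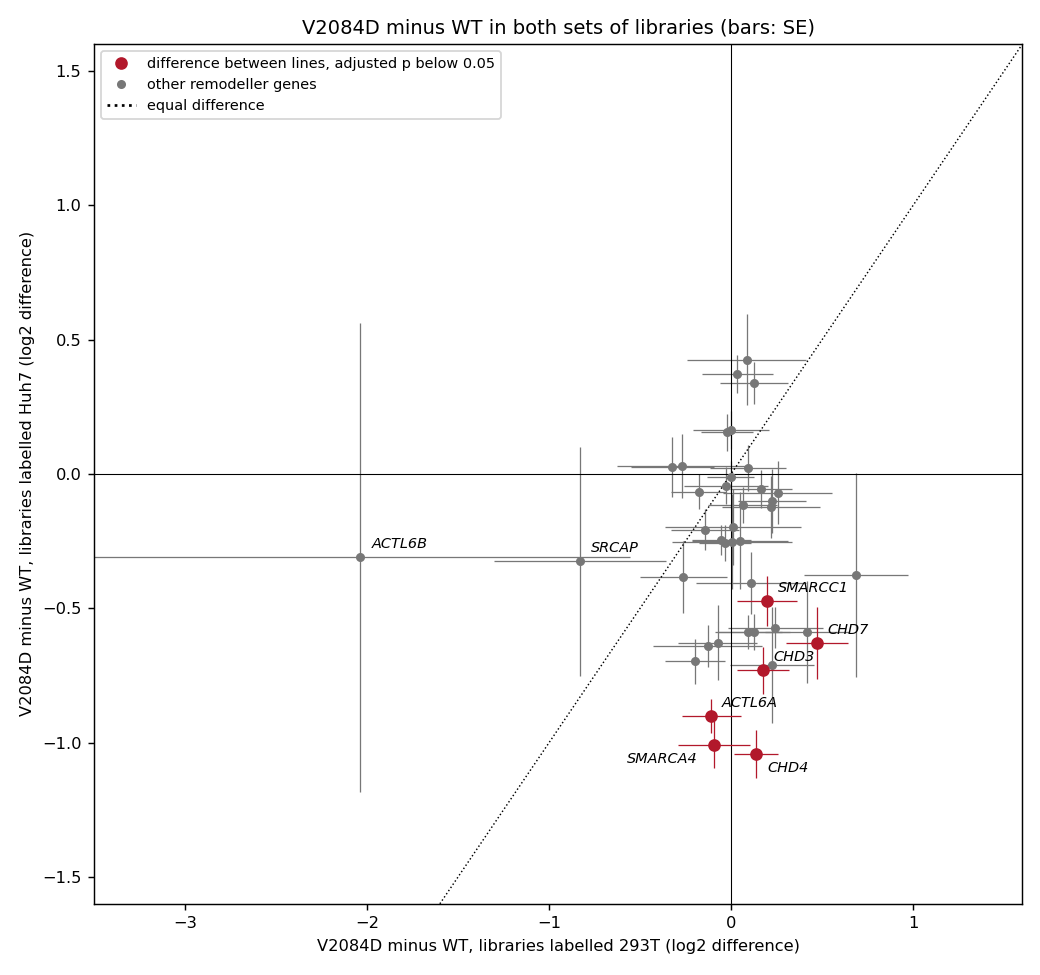
V2084D minus WT of the 41 genes in the libraries labelled Huh7 (y axis, log2 difference) and labelled 293T (x axis, log2 difference), with bars of 1 SE. The 6 red genes, whose difference between the sets had adjusted p below 0.05, lie low on the y axis, between -1.04 for CHD4 and -0.47 for SMARCC1, and near 0 or above on the x axis; ACTL6B lies far left on a level near 0 CPM.

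In the libraries labelled 293T, WT, V2084D, G2087E and G2087R gave no call among the 41 genes against KO, where 0% of all genes were called. At an unadjusted p below 0.05 there were 4, 2, 2 and 0 of the 41, beside 2544, 1120, 1314 and 1001 of all 23201 genes tested. DESeq2 called 0 of the 41 in each, beside 80, 29, 38 and 24 of all genes. Against WT, V2084D, G2087E, G2087R and K2025E likewise gave 0 calls among the 41 by edgeR and by DESeq2. Of all genes, edgeR called 0% for V2084D and G2087E and 0.00431% for G2087R and K2025E, and DESeq2 called 15, 16, 27 and 20 genes. An unadjusted p below 0.05 was held by 2, 0, 3 and 7 of the 41, beside 467, 475, 1032 and 1919 of all genes. No difference was detectable at this spread. In WT minus KO the SE on the log2 scale was 0.2 for SMARCA4 and 0.24 for DPF1. The same edgeR test did not call ARID1A either, at 7.46 (SE 1.61, adjusted p = 0.343) in WT minus KO. Its adjusted p by edgeR was 0.468, 0.537 and 0.973 in V2084D, G2087E and G2087R minus KO, while DESeq2 called it in each (adjusted p at most 9.85e-08). The lack of edgeR calls here therefore does not show that the genes were unchanged.

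DPF1, a double PHD finger subunit of canonical BAF, led or stood among the 4 smallest p-values in every one of the comparisons with KO. It was at 25.4, 43.7 and 36.4 CPM in K2025E, 17.1, 16.8 and 19.6 CPM in G2087R, 20.3, 18.1 and 24.6 CPM in G2087E, 21.3, 14.7 and 28.9 CPM in V2084D, 27.1, 22.9 and 27.5 CPM in WT and 12.4, 12 and 17.7 CPM in KO. The K2025E, WT and G2087E libraries were all above KO, and those of V2084D and G2087R overlapped KO. The differences from KO were 0.35 (SE 0.239, adjusted p = 0.973) for G2087R, 0.58 (SE 0.239, adjusted p = 0.856) for G2087E, 0.62 (SE 0.239, adjusted p = 0.989) for V2084D and 0.89 (SE 0.24, adjusted p = 0.343) for WT. With GC and length offsets and a replicate block together DPF1 was called in WT minus KO (0.7, adjusted p = 0.0311). Next in WT minus KO came BCL7B at 0.39, SMARCB1 at 0.38 and CHD3 at -0.37, with adjusted p from 0.362 to 0.415. SS18 and PHF10 had negative differences from KO in V2084D, at -0.39 and -0.35, and in G2087E, at -0.42 and -0.35 (adjusted p = 0.989 and 0.856 for SS18). Against WT the smallest p-values were those of CHD7 in V2084D (0.47) and G2087E (0.30), DPF1 in G2087R (-0.54) and CHD6 in K2025E (-0.69), with adjusted p = 1, 1, 0.981 and 0.601.

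K2025E against KO was the only comparison of the 293T set with calls among the 41 genes. Of these genes 3 rose and 5 fell, or 7.32% and 12.2%, where 7.17% of all genes rose and 5.72% fell. The share that rose thus lay near the background, and the share that fell lay above it. The median was -0.276 over the 41 genes and -0.0248 over all genes. DPF1 rose by 1.32 (SE 0.242, adjusted p = 0.00674) at the levels given above. SMARCB1 was at 204, 280.2 and 221 CPM in K2025E and 148, 156 and 155 CPM in KO, a difference of 0.62 (SE 0.165, adjusted p = 0.0215). BCL7B, of the ATPase module, was at 76.7, 90.6 and 92.0 CPM in K2025E and 57.4, 59.7 and 66.5 CPM in KO, a difference of 0.50 (SE 0.151, adjusted p = 0.0366). In these 3 genes every K2025E library was above every KO library.

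The 5 that fell were the ATPases CHD7, SMARCA2, EP400 and CHD6, and SS18L1. CHD7 was at 117, 76 and 74.8 CPM in K2025E and 139.8, 145 and 151 CPM in KO, a difference of -0.70 (SE 0.17, adjusted p = 0.014). SMARCA2 was at 33.3, 20.4 and 20.2 CPM in K2025E and 40.6, 40.0 and 39.8 CPM in KO, a difference of -0.70 (SE 0.187, adjusted p = 0.0214). Both had K2025E replicate 1 nearer to KO than replicates 2 and 3. EP400 was at 86.9, 56.6 and 48.7 CPM in K2025E and 98.6, 113 and 129 CPM in KO, a difference of -0.83 (SE 0.231, adjusted p = 0.0267). CHD6 was at 73.9, 35.8 and 39.8 CPM in K2025E and 81.2, 93.3 and 103 CPM in KO, a difference of -0.89 (SE 0.265, adjusted p = 0.035). SS18L1 was at 22.55, 18.5 and 17.4 CPM in K2025E and 28.0, 29.9 and 29.6 CPM in KO, a difference of -0.58 (SE 0.17, adjusted p = 0.0325). Replicate 1 again lay closest to KO in these 3 genes, without overlap of the groups.

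These 8 calls moved with length and with single libraries. Over the 41 genes the K2025E minus KO difference had Pearson's r = -0.766 with log2 length of the longest transcript, a description over genes that share the same 6 libraries. With offsets for GC content and length r was -0.43, and 4 genes rose (DPF1, SMARCB1, SMARCE1 and BRD7) and 1 fell (EP400), where 9.39% of all genes rose and 3.67% fell. On the first principal component of the 293T set, K2025E replicates 2 and 3 were at 104 and 66.6 while the others ran from -47.8 to 40.2. Without both, 0 genes were called. Leaving out 1 library gave 2, 1 and 5 calls without KO replicates 1, 2 and 3, and 16, 0 and 1 calls without K2025E replicates 1, 2 and 3. DESeq2 called 13 of the 41, beside 4579 of all genes. K2025E against WT had 3 calls without K2025E replicate 1. The share of all genes called with a library left out is not given here, so these counts were not set against the background.

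**Figure D4:**
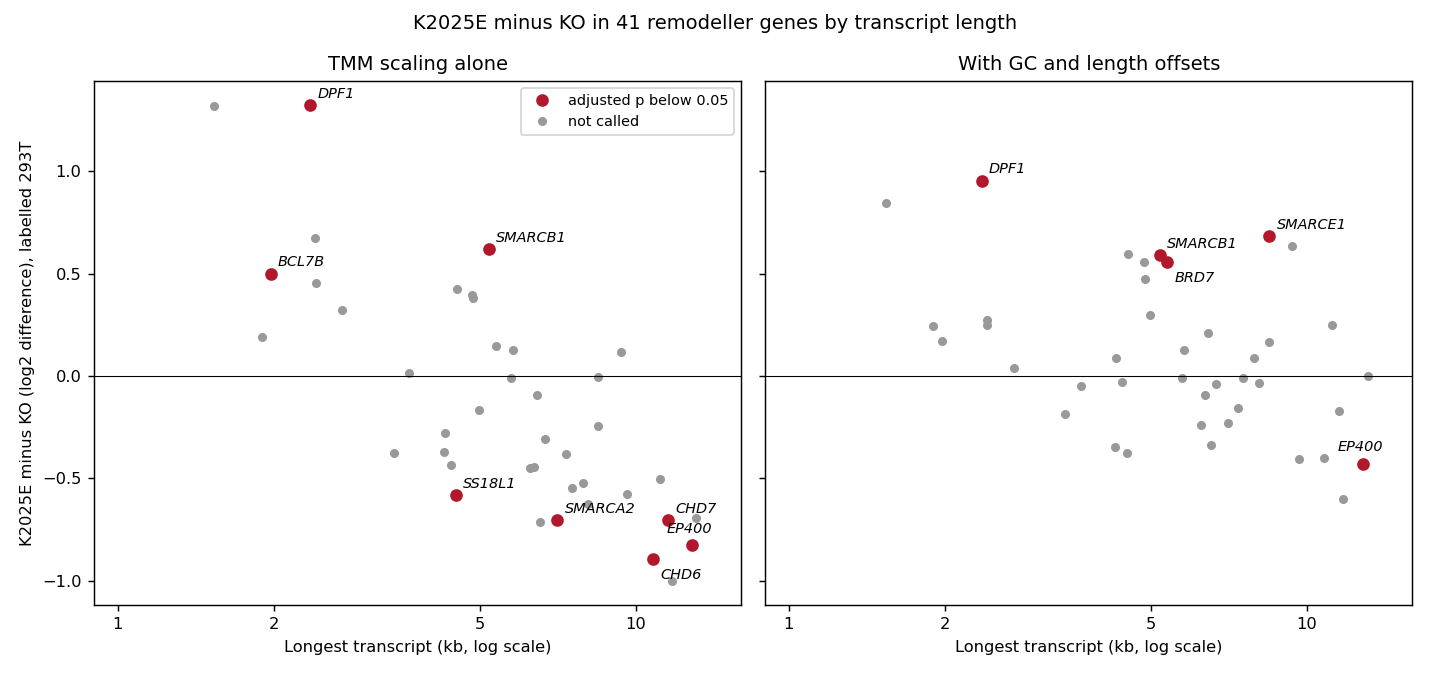
K2025E minus KO (y axis, log2 difference) of the 41 genes against the length of the longest transcript (x axis, kb, log scale), with TMM scaling alone (left) and with offsets for GC content and length (right). Red points are called: 8 on the left, where differences fall with length (r = -0.766), and 5 on the right (r = -0.43).

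WT of the set labelled Huh7 against WT of the set labelled 293T compares the label sets, which were deposited as separate tables, so label, batch and ARID1A level cannot be told apart. Of the 41 genes 5 were higher and 5 lower, or 12.2% each, where 10.5% of all genes were higher and 12.5% lower, so the shares lay near the background. SMARCA5 was at 388, 390 and 350 CPM in WT labelled Huh7 and 206.5, 206 and 212 CPM in WT labelled 293T, a difference of 0.85 (SE 0.154, adjusted p = 0.000277). SMARCD3, a BAF60 subunit known from heart and muscle, was at 47.8, 42.4 and 49.95 CPM in WT labelled Huh7 and 29.6, 28.5 and 20.4 CPM in WT labelled 293T, a difference of 0.84 (SE 0.177, adjusted p = 0.00137). Neither gene's groups overlapped. SMARCA4 was higher in the Huh7 set by 0.69 (SE 0.177, adjusted p = 0.00612). CHD3 was higher by 0.52 (SE 0.121, adjusted p = 0.00291), and these 4 calls held with each library left out. SMARCB1 was higher by 0.42. SMARCD1, BCL7B, BICRAL, CHD2 and CHD9 were lower, between -1.14 for CHD2 and -0.34 for SMARCD1. CHD2 was at 107, 107 and 109 CPM in WT labelled Huh7 and 144, 180 and 388 CPM in WT labelled 293T, so the third library of the 293T set carried much of its difference, and without it the call ended and 6 calls were made in all. Without WT replicate 1 labelled Huh7 there were also 6 calls. For both fits the share of all genes called is not given here. With GC and length offsets 11 genes were higher and 5 lower, where 18.5% and 13.3% of all genes were.

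The balance between genes that replace each other in a complex is given for families of alternative subunits. Shares of the summed CPM per kilobase are given as ranges over 3 libraries, without a test. SMARCA2 took 14.8 to 16.7% of SMARCA2 and SMARCA4 with shSTUB1, 15.1 to 16.9% in V2084D and 6.83 to 7.47% in WT of the Huh7 set. In the 293T set it took 4.66 to 9.3% in K2025E, 6.69 to 13.3% in G2087R, 7.31 to 11.9% in G2087E, 8.5 to 11.4% in V2084D, 8.02 to 8.84% in WT and 9.6 to 12.1% in KO. The range of KO overlapped those of G2087R, G2087E and V2084D and lay above those of WT and K2025E. SMARCA1 took 23.4 to 24.4% of SMARCA1 and SMARCA5 with shSTUB1 and nearly the same share in V2084D as in WT, 26.6 to 29.1% and 26.7 to 28.6%. CHD3 took 28.7 to 31.2% of CHD3, CHD4 and CHD5 with shSTUB1, 34.8 to 38.2% in V2084D and 30 to 32.7% in WT. BICRAL took 36.9 to 44.1% of BICRA and BICRAL with shSTUB1, 34.2 to 40.3% in V2084D and 19.2 to 23.5% in WT. DPF1 took 26.1 to 29.7% of the DPF genes with shSTUB1, 23.3 to 30.9% in V2084D and 31 to 32.6% in WT of the Huh7 set, and 14.6 to 16.8% in KO labelled 293T. In their families SMARCA4, CHD4, BICRA and DPF2 stayed the most abundant gene in the groups named. In the SMARCD family the most abundant gene was not the same in all groups. SMARCD1 took 48 to 49.1% and SMARCD2 44 to 45.5% in KO labelled 293T. In WT labelled Huh7 SMARCD1 took 37.2 to 39.1% and SMARCD2 50.8 to 51.3%.

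**Figure D5:**
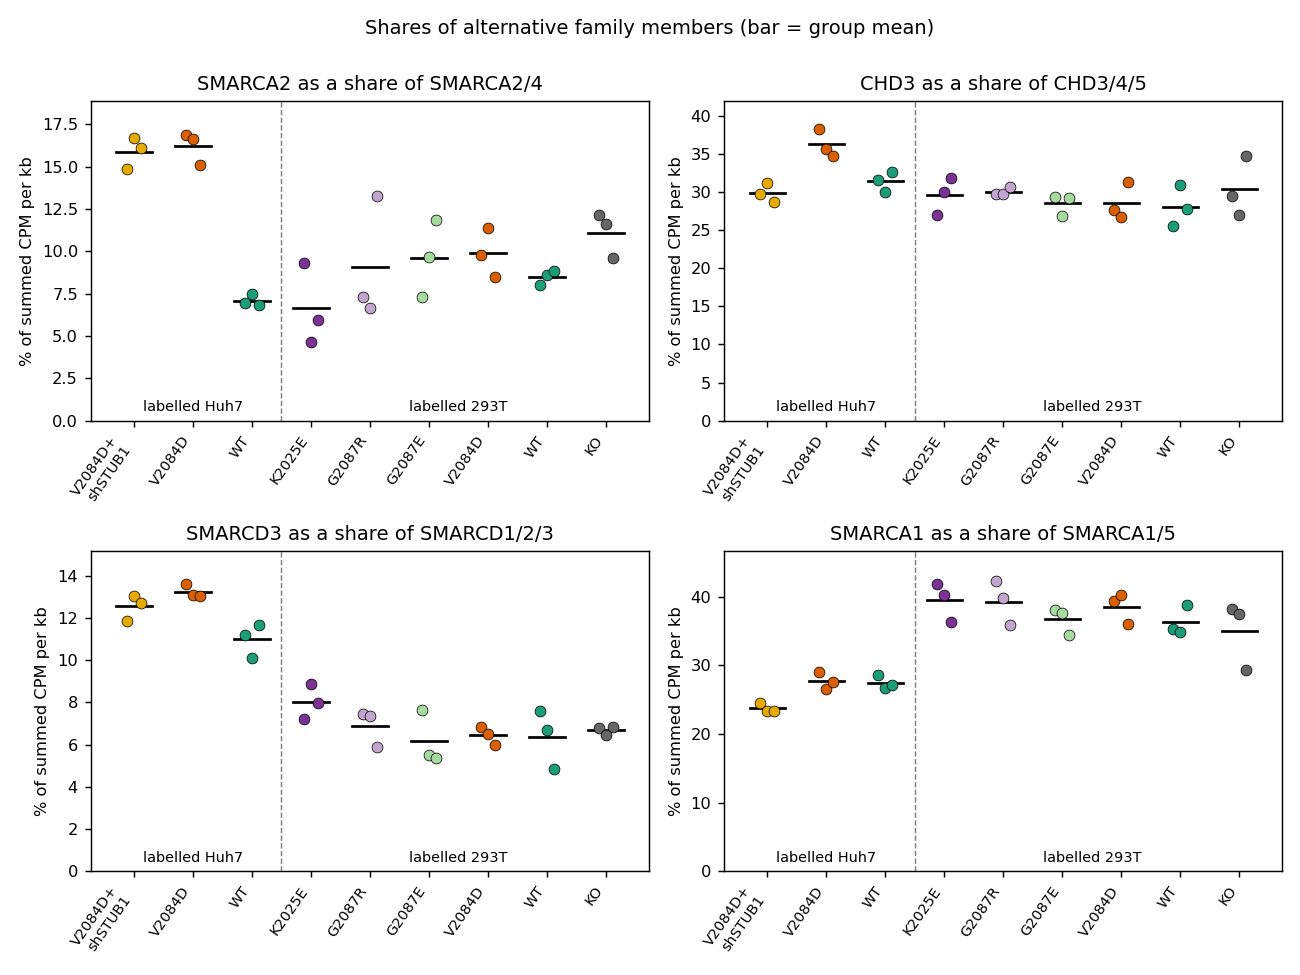
Share of SMARCA2, CHD3, SMARCD3 and SMARCA1 in the summed CPM per kb of their family (y axis, %), per library (points) with the group mean (bar), for the groups of both label sets. SMARCA2 stands at 14.8 to 16.9% in both V2084D groups of the Huh7 set and at 6.83 to 7.47% in WT; SMARCD3 stands at 10.1 to 13.6% in the Huh7 set and 4.85 to 8.89% in the 293T set.

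Of 54 partner genes in the same complexes, 9 rose and 25 fell in V2084D minus WT of the Huh7 set, with a median of -0.212, where 22.0% of all genes rose and 20.0% fell. The 25 include the ARID1A transcript itself. The NuRD partners gave 4 rises and 4 falls of 12, with MTA2 at -0.90 (SE 0.0611, adjusted p = 2.06e-06) and the histone chaperone RBBP4 at 0.61 (SE 0.0538, adjusted p = 1.03e-05). Partners in INO80, SRCAP and TIP60 gave 4 rises and 15 falls of 27, with MCRS1, an INO80 subunit, at -0.83 (SE 0.0742, adjusted p = 1.15e-05), and ISWI partners gave 5 falls of 9. With shSTUB1 against V2084D 12 rose and 6 fell, at a median of 0.0923 and with 10.8% of all genes called each way. Among them were ING3, a TIP60 subunit, at 1.01 (SE 0.103, adjusted p = 0.00018), EPC1, of the same complex, at 0.59 (SE 0.0831, adjusted p = 0.000958) and GATAD2B, of NuRD, at -0.55 (SE 0.0776, adjusted p = 0.000921). In K2025E minus KO 12 rose and 5 fell, at a median of 0.092, where 7.17% of all genes rose and 5.72% fell, with the INO80 subunits INO80E at 0.79 (SE 0.159, adjusted p = 0.00737) and TFPT at 1.43 (SE 0.292, adjusted p = 0.00752). ARID2, which marks PBAF, had a difference of -1.11 (SE 0.226, adjusted p = 0.00739) there, and ARID1B, the alternative to ARID1A, of -0.75 (SE 0.215, adjusted p = 0.029); the ARID1A transcript itself is counted among the 12. In the fit without K2025E libraries 2 and 3, 1 gene in all was called, so at most 1 of these partner calls held. ARID1B was at -0.20 in V2084D minus WT of the Huh7 set and not called. In WT minus WT between the label sets 11 partners were higher and 11 lower, where 10.5% of all genes were higher and 12.5% lower, among them HDAC1 at 1.02 (SE 0.097, adjusted p = 7.98e-08) and DAXX at -0.63 (SE 0.148, adjusted p = 0.00346). The 11 lower include the ARID1A transcript, at -6.19 (SE 1.34, adjusted p = 0.0017). The interaction called 1 partner higher and 8 lower, where 5.50% of all genes were higher and 4.21% lower, led by MTA2 at -0.82 (SE 0.136, adjusted p = 0.000385).

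Counts of overlapping genes bear on SRCAP and CHD4, since how the authors treated shared exons and strand is not given in the sources used here. Of SRCAP's exons, 76% of the length is shared with other genes, among them AC106886.5, and of CHD4's 53.5%, among them AC006064.6. SRCAP, an ATPase that places a histone variant in promoters, was at 155, 120 and 53.4 CPM in V2084D and 169, 112 and 123 CPM in WT of the Huh7 set, overlapping and not called (adjusted p = 0.585). Summed with AC106886.5 it was at 206, 143 and 251 CPM with shSTUB1, 193, 210.3 and 165 CPM in V2084D and 338, 356 and 368 CPM in WT. The sums of both V2084D groups lay below WT, with differences from WT of -0.85 (SE 0.167, adjusted p = 0.0018) with shSTUB1 and -0.93 (SE 0.167, adjusted p = 0.00112) in V2084D. CHD4 with AC006064.6 was at 287, 305.5 and 302.5 CPM in V2084D and 581, 589.7 and 598 CPM in WT, a difference of -1.01 (SE 0.0886, adjusted p = 1.02e-05), and its interaction was -0.89 (adjusted p = 0.0057). Of BRD7's exons 42.4% lie opposite ADCY7, and of those of SMARCE1, SMARCB1, SMARCD3, SMARCA5, BCL7C and CHD2 10.2 to 19.8% lie under other genes.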

How the data were processed

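RNA was extracted with Trizol and a miRNeasy column kit and made into libraries with the NEBNext Ultra II RNA kit from 500 ng of total RNA, per the labels' protocols. The authors deposited raw read counts per gene in 2 tables, 1 for each label set; the genome is GRCh38 and edgeR is named, per the submitters' processing notes, while the aligner, the counter, the annotation and the use of strand are not given in the sources used here. Overlapping genes and near-identical copies can therefore have split reads.

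The 41 genes were matched by symbol, and the second rows of SMARCB1 and BCL7A, at 0 in all libraries, were left out. Counts were fitted with edgeR 4.0.16 (R 4.3.3): filterByExpr (minimum count 10, minimum total 15), TMM scaling and the quasi-likelihood test, 2-sided, with Benjamini-Hochberg adjustment over all genes of a comparison. All groups of a label set share 1 fit (23201 genes over the 18 libraries labelled 293T, 22510 over the 9 labelled Huh7), and comparisons between the sets use 1 fit of all 27 (24546 genes). The SE was taken from the fold change and its F statistic. Exon lengths come from GENCODE 29, promoter windows from RefSeq. The fits were tested on simulated data.

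The members and lists were chosen with earlier results of these data known. In each comparison, values are given for called genes, at most the 8 with the smallest adjusted p, or, with no call, the 4 with the smallest p. Of the partners, at most the 3 with the smallest adjusted p are given, besides the ARID genes. Other genes appear as ranges or counts, except some called genes in V2084D minus WT of the Huh7 set and SRCAP with its overlapping gene, chosen after their values were seen. Alternatives were DESeq2 1.42.0, its size factors (RLE), other filters, the compared groups alone, a replicate block, offsets for GC content and length, and single libraries left out. A robust spread and summed counts of overlapping genes were added after seeing the data. Same-numbered libraries deviated together for every number in G2087R and WT labelled 293T (r = 0.132 to 0.315), where the block changed no call among the 41 genes. In the other comparisons this did not hold for every number. Replicate 3 still had the lowest value on the second principal component in each group labelled 293T. It stood at -56 in K2025E, -39.5 in G2087R, -45.9 in G2087E, -35.4 in V2084D, -59.2 in WT and -1.61 in KO. The labels give no batch for it.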

Additional observations from a re-analysis of the deposited data

Results flagged for a closer look

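For 6 of the 41 genes the effect of V2084D against WT differed between the libraries labelled Huh7 and those labelled 293T, by a test of the difference itself (edgeR's quasi-likelihood interaction over all 27 libraries, Benjamini-Hochberg adjusted over all genes). The log2 difference, Huh7 minus 293T, was -1.158 for CHD4, -0.8839 for CHD3, -1.075 for CHD7, -0.7693 for ACTL6A, -0.8911 for SMARCA4 and -0.6467 for SMARCC1. In the libraries labelled 293T the V2084D and WT groups of CHD4, CHD3, ACTL6A, SMARCA4 and SMARCC1 overlapped, while for CHD7 every V2084D library lay above every WT library (0.47, not called), so both sets enter its difference. The label sets were deposited as separate tables and also differ in ARID1A level, at 211.3 to 270 CPM in V2084D and 329.1 to 389.9 CPM in WT labelled Huh7, against 42890 to 116300 CPM in V2084D and 5727 to 63180 CPM in WT labelled 293T; line, batch and ARID1A level cannot be told apart. With the counts of AC006064.6 added, CHD4 had an interaction of -0.89 (SE 0.2, adjusted p = 0.0057).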

How the results depend on the processing

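The direction of every called gene held under all alternatives run, and the counts of V2084D minus WT and shSTUB1 minus WT of the Huh7 set stayed within 1.5 times of 20 and 25. Without single libraries the calls ran from 17 to 19 for V2084D minus WT, 21 to 25 for shSTUB1 minus WT, 6 to 12 for shSTUB1 minus V2084D, 6 to 11 for WT minus WT between the sets, 4 to 7 for the interaction, 0 to 16 for K2025E minus KO and 0 to 3 for K2025E minus WT. K2025E minus KO, with 8 calls, had 13 with DESeq2, 1 with the compared groups only, 5 with GC and length offsets and 0 in the fit without K2025E libraries 2 and 3. WT minus WT, with 10 calls, had 16 with the offsets and 23 with offsets and block. The interaction, with 6, had 11 with the compared groups only, 11 with the offsets and 13 with offsets and block, all lower in the Huh7 set. With the offsets 2276 of all 24546 genes were lower there, against 1034 without them. Fewer samples or other scaling enter in these runs, and the cause was not tested. Most other counts in this paragraph stand without the share of all genes called in the same fit. Their changes were therefore not set against the background. WT minus KO had 1 call, DPF1, with offsets and block. With the replicate block alone the calls were 20 for V2084D minus WT, 24 for shSTUB1 minus WT, 10 for shSTUB1 minus V2084D, 10 for K2025E minus KO, 10 for WT minus WT and 6 for the interaction. Beyond G2087R and WT labelled 293T, same-numbered libraries did not deviate together for every number. Replicate 3 did stand lowest on the second principal component in each group labelled 293T.

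Uncalled differences changed sign 4 times. In the fit without G2087R libraries 1 and 2, SMARCB1 had -0.0106 (0.28 with them) and SMARCD2 -0.20 (0.23 with them) in G2087R minus KO, and SMARCC2 had -0.11 (0.32 with them) in G2087R minus WT. SRCAP had 0.0597 in V2084D minus WT labelled 293T with the counts of AC106886.5 added, and -0.83 alone. Totals of 33429483 counts or more leave counting error small against the spread between libraries, which with 3 per group sets the limit; ACTL6B, DPF3 and CHD5, below 1 CPM per kb, are the least certain.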
